A study of Mus musculus with 2 samples.

Results

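Cycling CD8 T cells were taken from a single-cell RNA data set as cells with at least 1 UMI, that is 1 counted RNA molecule, of Cd3e and of Cd8b1 and with none of Cd4, Foxp3 and C1qa. They also had UMIs of at least 3 of the 5 cycle genes Mki67, Top2a, Birc5, Cdk1 and Tpx2 and of at most 2 of the 5 granzyme genes Gzmc to Gzmg. The rule found 480 of 17390 deposited cells, 168 in the treated and 312 in the untreated library. These 15 genes chose the cells and are given as a description.

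The cells were labelled as T cells of NILER, a syngeneic mouse melanoma model that derives from the Nras-mutated (Q61R) line NIL and was exposed to ultraviolet light to add mutations. The treated library, of 8078 cells, came from material that had received a pair of drugs, trametinib, which inhibits MEK1 and MEK2, and BGB-283, a RAF kinase inhibitor, and the untreated library, of 9312 cells, from material given neither. Both were taken on day 5 and were made with the same droplet kit for the 3' ends of transcripts. How the T cells were isolated, and from how many animals, is not given in the sources used here. With 1 library per group there was no spread between replicates, no test was possible, and treatment, animal and batch cannot be told apart. All intervals below are exact 95% intervals that cover counting error only.

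A CD8 T cell that has met its antigen grows, copies its DNA in S phase and divides in mitosis, and the clone that results carries out killing. Entry into the cycle is driven by D- and E-type cyclins and E2F factors downstream of the T cell receptor, interleukin 2 and the RAF, MEK and ERK kinases. Of these kinases, the 2 drugs inhibit RAF and MEK. Of the 5 cycle genes, Mki67 encodes a coat protein of mitotic chromosomes, Top2a a topoisomerase that untangles copied DNA, Birc5 the survivin subunit of the chromosomal passenger complex, Cdk1 the kinase that starts mitosis and Tpx2 a spindle assembly factor. In tumours, dividing CD8 cells are often found among those that express the receptor PD-1.

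Promoters of such genes carry elements that switch them on late in the cycle: the CCAAT box, bound by the factor NF-Y, and the cell cycle homology region TTTGAA, bound by the DREAM and B-MYB complexes. The 120 bases before the start of 4 of the cycle genes are printed to show where these letters lie, from RefSeq on GRCm38.p6, 5′ to 3′ on the strand of the gene. Capitals mark CCAAT and TTTGAA on either strand, so that ATTGG and TTCAAA are marked as well.
Mki67: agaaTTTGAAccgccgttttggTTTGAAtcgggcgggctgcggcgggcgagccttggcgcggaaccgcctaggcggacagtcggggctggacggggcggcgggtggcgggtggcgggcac
Top2a: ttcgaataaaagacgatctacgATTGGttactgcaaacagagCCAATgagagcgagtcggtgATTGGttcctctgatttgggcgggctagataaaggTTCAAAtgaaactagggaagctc
Cdk1: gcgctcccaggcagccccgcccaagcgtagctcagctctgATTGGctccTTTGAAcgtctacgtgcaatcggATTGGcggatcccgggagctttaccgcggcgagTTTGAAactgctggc
Birc5: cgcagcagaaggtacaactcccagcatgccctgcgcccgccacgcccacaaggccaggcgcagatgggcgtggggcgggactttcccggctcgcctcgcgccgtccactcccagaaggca
They lie at chr7:135716380-135716499 (minus strand), chr11:99024190-99024309 (minus strand), chr10:69352913-69353032 (minus strand) and chr11:117849117-117849236 (plus strand). Cdk1 held 2 CCAAT boxes and 2 TTTGAA elements in this window, Top2a 3 and 1, Mki67 0 and 2, and Birc5 0 of either. Over the 250 bases before the start, TTTGAA was found in 18 of 50 promoters of a list of G2 and mitosis genes (36%), in 4 of 26 of a list of S phase genes (15.4%), in 3 of 17 of a list of killing genes (17.6%) and in 16.3% of all 27025 promoters. CCAAT was found in 74% of the mitosis, 65.4% of the S phase, 23.5% of the killing and 34.5% of all promoters. For GGCGG, a core like that of E2F sites, which is left in lower case and can share letters with ATTGG, the shares were 84%, 76.9%, 41.2% and 45.2%. A match to letters is a description, not a binding site.

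Markers of CD8 T cells were present: Cd3e stood at 703 CPM in treated and 607 CPM in untreated members, Cd8a at 580.5 CPM in treated and 629 CPM in untreated members and Cd8b1 at 616 CPM in treated and 616 CPM in untreated members. CPM is the share of a gene in the UMIs summed over the members of a library, on the usual CPM scale. Members held 3187043 UMIs in the treated and 6798920 in the untreated library. The median cell had 15331.5 UMIs (2806 to 234971) and 3712.5 genes in the treated library and 19064.5 UMIs (1829 to 93647) and 3928 genes in the untreated library. Gated CD8 cells with none of the 5 cycle genes had a median of 6222 UMIs in the treated and 5891 in the untreated library, so members were 2.46 times as deep in the treated and 3.24 times in the untreated library. Mitochondrial UMIs had a median share of 3.63% in treated and 3.97% in untreated members. Of 35 cell barcodes found in both libraries, 1 belonged to a member and none to members in both.

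Some members carried transcripts of other cell types. With limits chosen after the values were seen (10 UMIs of melanoma and stroma genes, or 100 UMIs of dendritic or of macrophage genes), 8 treated and 21 untreated members did so, and they held 16.2% of the treated and 11.8% of the untreated members' UMIs. In the treated library 3 members held 99.7% of the UMIs of the stroma list, with a median of 1 Cd3e and 1 Cd8b1 UMI against 13 and 12 in the others, and the deepest of all held 7.37% of the UMIs. Dendritic transcripts marked 5 treated and 16 untreated members, and macrophage transcripts 1 treated and 2 untreated members. Summed levels of the stroma list were 747 CPM in treated and 37.4 CPM in untreated members, of the dendritic list 2071 CPM in treated and 2312 CPM in untreated members and of the macrophage list 161 CPM in treated and 237 CPM in untreated members, with C1qa at 0 by the rule. In treated members erythroid genes were at 0 CPM, neutrophil genes at 3.14, B cell genes at 27.9, gamma delta T cell genes at 40.5 and NK cell genes at 260.4 CPM. In untreated members the same lists were at 5.15, 3.53, 53.2, 40.0 and 369 CPM, and Ncr1, an NK receptor gene, was at 0 in both libraries. Per cell, the dendritic list had a median of 0 CPM in treated and 146 CPM in untreated members, and of 0 CPM in treated and 129.7 CPM in untreated members of the 451 that remain without these 29 cells. Its median log2 ratio was -0.12 in all members and -2.94 in the 451, where 4 of 4 genes past the minimum were lower. The 451 were chosen on this list's own UMIs, and the cells marked by it held 98.0% of its UMIs in treated and 87.4% in untreated members. Its values in the 451 are thus partly set by that choice and are a description. The part of this RNA in the results was not tested. The 451 are members under the limits and still carry such transcripts, with up to 96 dendritic and 50 macrophage UMIs in an untreated cell. Where leaving the 29 cells out moved the printed ratio of a gene by over 1.5 times, the value in the 451 is given too. Top2a, Birc5, Cd8a, Ccnd2, Hk2 and Pclaf turned the sign of their ratio without these cells and were within 1.5-fold in both readings.

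The cut at 3 cycle genes was met with room to spare by most members. All 5 were found in 107 treated members (63.7%) and 168 untreated members (53.8%), 4 in 29 treated and 64 untreated members, and 3 in 32 treated and 80 untreated members. Just outside, 147 treated and 101 untreated cells of the same gate had 2. The summed level of 60 G2 and mitosis genes, none of them used by the rule, had a median of 6743 CPM in treated and 7305 CPM in untreated cells with 3 cycle genes, against 3017 CPM in treated and 4124 CPM in untreated cells with 2, and 2905 CPM in treated and 2364 CPM in untreated cells with none. For 33 S phase genes the medians were 1689 CPM in treated and 3064 CPM in untreated cells with 3 cycle genes, 1076 CPM in treated and 1469 CPM in untreated cells with 2, and 1053 CPM in treated and 572 CPM in untreated cells with none. Treated cells with 2 cycle genes thus lay close to treated non-cycling cells, while untreated cells with 2 lay above untreated non-cycling cells. At the other limit, 17 treated and 50 untreated members had 2 of the 5 granzyme genes, and 15 treated and 53 untreated cells met every other criterion with 3 or more.

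**Figure D1:**
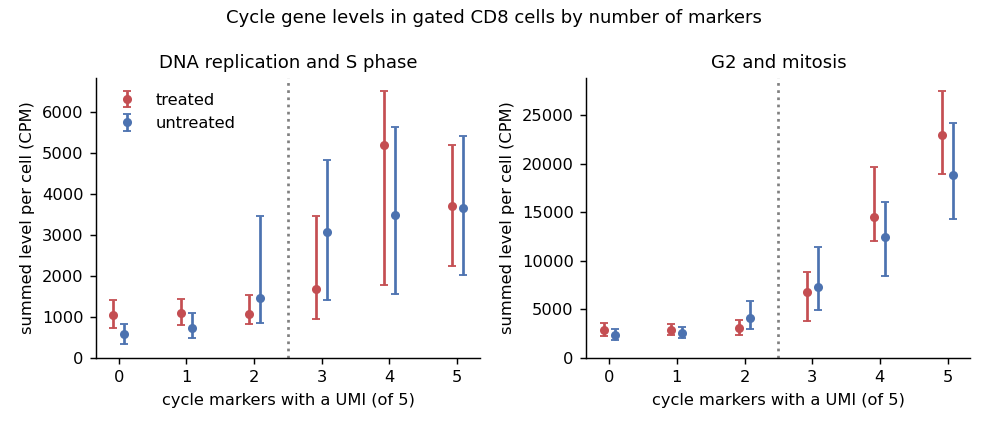
Summed level per cell (CPM, median with the quartiles as bars) of the S phase list (left) and the G2 and mitosis list (right) in gated CD8 cells, by the number of the 5 cycle genes with a UMI, in the treated (red) and untreated (blue) library. The dotted line is the limit of the rule; with 5 genes the G2 and mitosis medians were 22892 CPM in treated and 18798 CPM in untreated cells.

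Cycling cells made up 3.88% of gated CD8 T cells in the treated library (3.33 to 4.50; 168 of 4326) and 8.96% in the untreated library (8.03 to 9.96; 312 of 3482). That is a ratio of 0.433. Since the rule asks whether a gene has a UMI, each cell was also thinned to 3000 UMIs before the rule was applied, and the shares were then 2.49% in the treated (89 of 3573) and 5.18% in the untreated library (152 of 2932). This left out 188 treated and 156 untreated gated cells that were shallower, and cells that no longer passed the gate. As shares of every deposited cell, members were 2.08% of the treated library (1.78 to 2.41) and 3.35% of the untreated library (2.99 to 3.74). An isolation step can set the last 2 values.

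The gap between the libraries was wider among cells with a UMI of Pdcd1, the PD-1 gene, than among those without. Of PD-1+ gated cells, 146 of 3017 were cycling in the treated library (4.84%, 4.10 to 5.67) and 258 of 869 in the untreated library (29.7%, 26.7 to 32.8). Of PD-1- gated cells the shares were 1.68% in the treated (1.06 to 2.53) and 2.07% in the untreated library (1.56 to 2.69). PD-1+ cells made up 69.7% of the treated and 25% of the untreated gate, but 86.9% of treated and 82.7% of untreated members. After thinning to 3000 UMIs, with PD-1 read in the thinned cells, the cycling shares were 2.73% of treated and 13.6% of untreated PD-1+ cells, and 2.20% of treated and 2.97% of untreated PD-1- cells. As a check of free RNA, B cells with Cd79a and Cd79b and without Cd3e and Cd8b1 held Pdcd1 in 0 of 93 treated cells and in 0 of 8 untreated cells; at a limit of 3 counts of the total this allows a share of up to 3.23% in treated and 37.5% in untreated B cells. The 3 or more cycle genes of the rule were likewise found in 0 of 93 treated and 0 of 8 untreated cells. The median depth of these B cells was 2806 UMIs in the treated and 5511.5 in the untreated library, against 6537 in treated and 6599 in untreated gated CD8 cells. Taking B cells without Cd3e and Cd8b1 left out those that held RNA of these T cell genes. The values of 0 are thus partly set by that choice and are a description.

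The same share is given for other T cells of the libraries, with no test of a difference between classes. Of CD8 cells with 3 or more of Gzmc to Gzmg, 8.24% were cycling in the treated (4.69 to 13.2; 15 of 182) and 28.6% in the untreated library (22.3 to 35.7; 53 of 185). Among Foxp3+ CD4 cells, which include regulatory T cells, the shares were 10.9% in the treated (7.54 to 15.1; 31 of 284) and 11.1% in the untreated library (7.73 to 15.3; 32 of 288), intervals that overlap widely. At 3000 UMIs they were 2.40% in the treated, on 3 cells, and 4.10% in the untreated library, on 5. Foxp3- CD4 cells had 0.455% in the treated (2 of 440) and 1.69% in the untreated library (14 of 827).

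**Figure D2:**
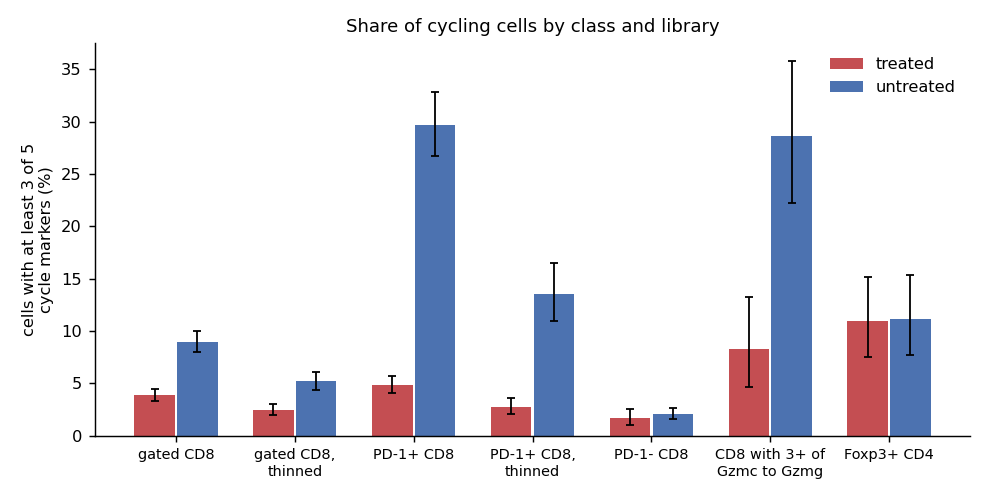
Share of cells with at least 3 of the 5 cycle genes (%) in each class, for the treated (red) and untreated (blue) library, with exact 95% intervals for counting error. The shares were 4.84% of treated and 29.7% of untreated PD-1+ CD8 cells, and 10.9% of treated and 11.1% of untreated Foxp3+ CD4 cells.

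Within the members, S phase genes were at like levels and mitotic genes stood higher per cell in the treated library. The S phase list had a median of 3454 CPM per treated member (quartiles 1761 and 5188) and 3463 CPM per untreated member (1827 and 5289). The G2 and mitosis list had a median of 19697 CPM per treated member (12859 and 24848) and 14825 CPM per untreated member (9103 and 21260), and 111 of 168 treated members lay above the untreated median. Summed over members the list was at 16985 CPM in the treated and 15288 CPM in the untreated library. Treated members also held more of the 5 cycle genes per cell, as given above. With 3 of them the list's median was lower in treated cells (6743 against 7305 CPM), and with 4 (14484 against 12466 CPM) and 5 (22892 against 18798 CPM) it was higher. The rule asks for detection of cycle genes, and the median treated member was shallower (15331.5 against 19064.5 UMIs). The part of depth and of the rule in the list's level was not tested. Across cells the 2 lists had a Spearman correlation of 0.234 over 168 treated and -0.0949 over 312 untreated members, as a description of cells that share a library and a UMI total.

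**Figure D3:**
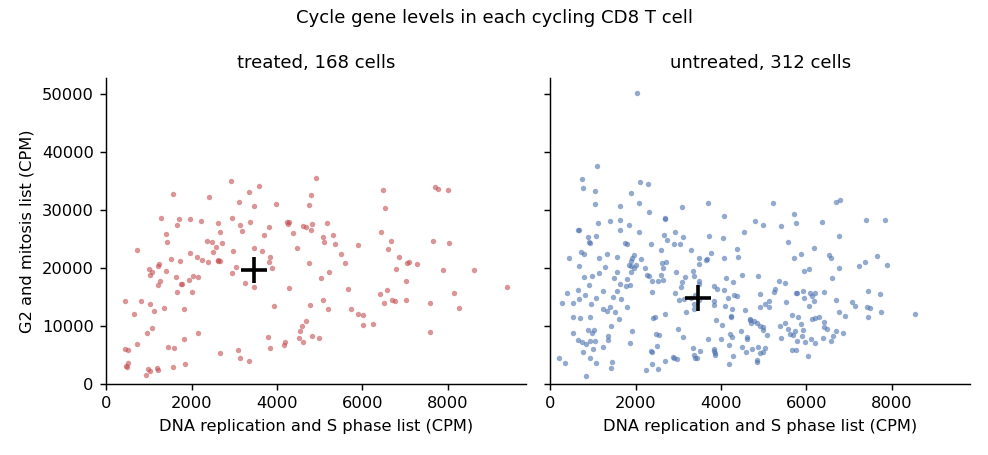
Summed level of the S phase list (x axis, CPM) against the G2 and mitosis list (y axis, CPM) in each member, treated on the left and untreated on the right, with the medians as a cross. The crosses lie at 3454 and 19697 CPM in the treated and at 3463 and 14825 CPM in the untreated library.

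Summed over members, 6008 genes had at least 50 UMIs and 20 CPM in 1 library and were compared. Of these, 657 were at least 2-fold higher in treated members (10.9%) and 199 at least 2-fold lower (3.31%); at 1.5-fold, the limit used for gene lists, 1435 were higher (23.9%) and 676 lower (11.3%), and the median log2 ratio was 0.097. Without the 29 cells, where 5825 genes passed, 642 were 2-fold higher (11%) and 247 lower (4.24%). There 24.3% were 1.5-fold higher and 13.9% lower, and 494 of the 2-fold higher and 166 of the 2-fold lower genes were called in both sets. Lists below are read against these shares, and members of a list under the minimum in both libraries do not enter.

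Genes that drive entry into the cycle went both ways. Of 15 G1 genes past the minimum, 4 were at least 1.5-fold higher and 2 lower, with a median log2 ratio of 0.050. Ccne2, an E-type cyclin that starts S phase with CDK2, stood at 43.0 CPM in treated and 14.6 CPM in untreated members, 2.95-fold higher (interval 2.26 to 3.86). Myb, a factor of proliferating blood cells, was at 82.2 CPM in treated and 29.7 CPM in untreated members, 2.77-fold higher (interval 2.29 to 3.34), and E2f2, an activating E2F, at 51.1 CPM in treated and 23.4 CPM in untreated members. The D-type cyclin Ccnd3 was at 73.7 CPM in treated and 118 CPM in untreated members, 1.60-fold lower (interval 1.38 to 1.85), and Ccnd2, at 139 CPM in treated and 134 CPM in untreated members, had an interval that included 1. Ccnd1, at 13.5 CPM in treated and 21.8 CPM in untreated members, came to 0.748 CPM in treated and 2.00 CPM in untreated members of the 451 remaining.

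Replication genes as a list were level, with 4 of 32 higher, 5 lower and a median of -0.15. Pcna, the clamp that holds DNA polymerases, stood at 316 CPM in treated and 188 CPM in untreated members, 1.68-fold higher (interval 1.55 to 1.83), and Atad2, a chromatin factor of S phase, at 195 CPM in treated and 115 CPM in untreated members. Ung, which removes uracil from DNA, was at 6.59 CPM in treated and 32.4 CPM in untreated members, 4.91-fold lower (interval 3.13 to 8.09); its log2 ratio of -2.30 came to -0.81 in thinned cells. Rfc4, a subunit of the loader of that clamp, was at 43.3 CPM in treated and 87.4 CPM in untreated members. Single genes of replication thus stood on both sides of an even list.

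Replication-dependent histones, which are made as DNA is copied, were higher in 4 of 10 and lower in 0, with a median of 0.35 that turned to -0.25 in thinned cells. Hist1h2ae stood at 133 CPM in treated and 57.1 CPM in untreated members and Hist1h2ap at 429 CPM in treated and 222 CPM in untreated members. These genes are near-identical copies whose reads can be split between them, so single values are uncertain.

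Mitotic genes were mostly level as sums, with 3 of 58 higher, 4 lower and a median of 0.084 (0.27 in the 451 cells). The kinesin Kif11, which pushes spindle poles apart, was at 135 CPM in treated and 69.6 CPM in untreated members, 1.94-fold higher (interval 1.70 to 2.22), and Ncapd2, a condensin subunit, at 121 CPM in treated and 66.5 CPM in untreated members. Other mitotic genes were lower. Aurka, a spindle pole kinase, was at 12.2 CPM in treated and 42.8 CPM in untreated members, 3.5-fold lower (interval 2.5 to 5.02), or a log2 ratio of -1.04 in thinned cells against -1.81, and Plk1, the kinase it activates, at 28.2 CPM in treated and 60.3 CPM in untreated members, 2.14-fold lower (interval 1.70 to 2.71). Ccnb1, the cyclin partner of CDK1, was at 58.7 CPM in treated and 93.5 CPM in untreated members, 1.59-fold lower (interval 1.35 to 1.89), and Cdc20, the activator of the anaphase-promoting complex, at 65.9 CPM in treated and 119.6 CPM in untreated members, 1.81-fold lower (interval 1.56 to 2.12). After members were thinned to 3000 UMIs, Ccnb1 was found in 15.0% of treated and 14.8% of untreated members. The rule was not read again for these shares, whereas the ratios in thinned cells are from cells that met it after thinning. Ube2c, an enzyme that works with the complex that Cdc20 activates, was level at 509 CPM in treated and 487 CPM in untreated members. The B-type cyclin Ccnb2 was level as well, at 196 CPM in treated and 181 CPM in untreated members. Among the genes of the rule, Mki67 stood at 400.4 CPM in treated and 238 CPM in untreated members, Top2a at 485 CPM in treated and 502 CPM in untreated members, Birc5 at 332 CPM in treated and 350.5 CPM in untreated members, Cdk1 at 178 CPM in treated and 214 CPM in untreated members and Tpx2 at 138 CPM in treated and 121 CPM in untreated members.

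Brakes of the cycle went both ways, with more of them higher than lower in treated members, as among all genes. Of 20 genes past the minimum 7 were at least 1.5-fold higher and 3 lower, where 23.9% of all genes were higher and 11.3% lower. The list had a median of 0.51, against 0.097 for all genes, and its summed level lay above the untreated median in 133 of 168 treated members. Foxo1, a factor of quiescence that PI3K and AKT signals switch off, stood at 101 CPM in treated and 37.4 CPM in untreated members, 2.71-fold higher (interval 2.29 to 3.21). The antiproliferative genes Tob1 and Tob2 were at 49.9 CPM in treated and 18.8 CPM in untreated members and at 144 CPM in treated and 54.4 CPM in untreated members, and E2f7, a repressing E2F, at 22.6 CPM in treated and 10.1 CPM in untreated members. The CDK inhibitor gene Cdkn1b was at 66.5 CPM in treated and 45.2 CPM in untreated members, 1.47-fold higher (interval 1.23 to 1.76), while Cdkn1a, the p21 gene, at 92.6 CPM in treated and 81.3 CPM in untreated members, had an interval that included 1. Cdkn2d, another CDK inhibitor gene, was at 51.8 CPM in treated and 82.5 CPM in untreated members, 1.59-fold lower (interval 1.34 to 1.91). Klf2, a factor of resting T cells, was also lower, at 79.1 CPM in treated and 131 CPM in untreated members and at 51.3 CPM in treated and 117 CPM in untreated members of these 451. In PD-1+ non-cycling cells the list had a median of 0.71.

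Glycolysis genes gave the most uniform difference of the metabolic lists. Of 16 genes 14 were at least 1.5-fold lower and 0 higher in treated members, with a median of -0.91. The summed level had a median of 5174 CPM per treated member and 10628 CPM per untreated member, and 13 of 168 treated members lay above the untreated median. Tpi1, triosephosphate isomerase, stood at 256 CPM in treated and 711 CPM in untreated members, 2.77-fold lower (interval 2.57 to 2.99). Pfkl, a subunit of the committing enzyme phosphofructokinase, was at 26.7 CPM in treated and 82.5 CPM in untreated members, 3.09-fold lower (interval 2.46 to 3.93), and Ldha, which makes lactate, at 754 CPM in treated and 1578 CPM in untreated members, 2.09-fold lower (interval 2.00 to 2.19). Of all 16, only Hk1, at 45.8 CPM in treated and 46.2 CPM in untreated members, and Hk2, at 26.4 CPM in treated and 21.9 CPM in untreated members, both hexokinases, were within 1.5-fold. The median was -1.05 in PD-1+ non-cycling cells and -0.066 in all non-cycling CD8 cells, most of which lacked PD-1 in the untreated library.

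Genes of nucleotide synthesis and ribosome biogenesis were lower or level. In the nucleotide and one-carbon list 10 of 20 genes were lower and 0 higher, with a median of -0.59, against -0.29 in PD-1+ non-cycling cells. Shmt2, the mitochondrial enzyme that feeds serine into one-carbon units, stood at 22.6 CPM in treated and 80.9 CPM in untreated members, 3.58-fold lower (interval 2.80 to 4.64), and Impdh2, which commits purines to GTP, at 142 CPM in treated and 289 CPM in untreated members, 2.03-fold lower (interval 1.83 to 2.25). Rrm1, a subunit of ribonucleotide reductase, was at 150.0 CPM in treated and 149.7 CPM in untreated members. Lower as well were Tk1, the thymidine kinase, at 71.5 CPM in treated and 126 CPM in untreated members, and Dctpp1, which breaks down excess dCTP, at 79.7 CPM in treated and 141 CPM in untreated members.

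The Myc and ribosome biogenesis list had 8 of 18 genes lower and 0 higher, with a median of -0.53 (-0.19 in PD-1+ non-cycling cells). Srm, the spermidine synthase, stood at 32.6 CPM in treated and 81.5 CPM in untreated members, 2.5-fold lower (interval 2.02 to 3.11). Myc itself, a factor that drives growth, was at 7.22 CPM in treated and 25.6 CPM in untreated members, on 23 UMIs in treated and 174 in untreated members, 3.55-fold lower (interval 2.29 to 5.74), and at 2.62 CPM in treated and 26.0 CPM in untreated members, 9.93-fold lower (interval 4.71 to 25.1), in the 451 cells. Mitochondrial respiration genes were close to level, with 2 of 14 lower and a median of -0.28. In the sterol list, with a median of -0.54 that turned to 0.094 in thinned cells, Fdps, an enzyme of isoprenoid synthesis, was at 10.0 CPM in treated and 43.4 CPM in untreated members, 4.32-fold lower (interval 2.99 to 6.43), and Scd2, a fatty acid desaturase, at 125 CPM in treated and 19.6 CPM in untreated members, 6.38-fold higher (interval 5.23 to 7.83).

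Factors that the T cell receptor induces stood higher in treated members. Of 12 genes 7 were at least 1.5-fold higher and 2 lower, with a median of 0.87; the summed level had a median of 3302 CPM per treated member and 1574 CPM per untreated member, and 147 of 168 treated members lay above the untreated median. Nr4a3, an orphan nuclear receptor of strong receptor signals, stood at 348 CPM in treated and 43.5 CPM in untreated members, 8.0-fold higher (interval 7.03 to 9.13). Its relative Nr4a1 was at 214 CPM in treated and 93.1 CPM in untreated members, 2.30-fold higher (interval 2.06 to 2.57), or 3.51-fold in the 451 cells, and Crem, a regulator of cyclic AMP responses, at 509.6 CPM in treated and 122 CPM in untreated members, 4.17-fold higher (interval 3.83 to 4.54). Lower in treated members were Cd69, an early surface marker of activation, at 32.6 CPM in treated and 69.3 CPM in untreated members, and Tnfrsf9, which encodes the costimulator 4-1BB, at 251 CPM in treated and 395 CPM in untreated members. The treated over untreated median of the list was 1.19 in PD-1+ non-cycling and 1.91 in all non-cycling cells, so the difference was not particular to members. Compared with PD-1+ non-cycling cells of their own library, members had a list median of -0.55 in the treated and -0.29 in the untreated library. Nr4a3 was at 673 CPM in treated and 74.9 CPM in untreated cells that were PD-1+ and not cycling.

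AP-1 factors, which act with NFAT on activation genes, had 5 of 8 higher and a median of 1.13, which came to 0.44 in the 451 cells and to -0.050 in thinned cells. Fosl2 stood at 397 CPM in treated and 94.7 CPM in untreated members, 4.19-fold higher (interval 3.81 to 4.61), and Fosb at 223 CPM in treated and 49.3 CPM in untreated members. For Fos and Jun, the immediate early pair, the cell with most UMIs of each held 71.4% and 68.4% of the UMIs of treated members: Fos was at 236 CPM in treated and 114 CPM in untreated members over all cells but at 38.5 CPM in treated and 53.5 CPM in untreated members of these 451, and Jun at 183 CPM in treated and 145 CPM in untreated members against 42.7 CPM in treated and 95.2 CPM in untreated members of these 451.

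Most feedback genes of the ERK pathway, the pathway the drugs act on, that passed the minimum stood higher in treated members. Of 8 genes past the minimum 5 were at least 1.5-fold higher and 1 lower, with a median of 0.78, and 147 of 168 treated members lay above the untreated median of the summed level. Spred2, an inhibitor of RAS and RAF, was at 26.0 CPM in treated and 8.53 CPM in untreated members, 3.05-fold higher (interval 2.16 to 4.35). Spry2, another feedback inhibitor, stood at 45.5 CPM in treated and 26.2 CPM in untreated members, 1.74-fold higher (interval 1.39 to 2.18), and Phlda1 at 136 CPM in treated and 61.3 CPM in untreated members. Dusp6, the phosphatase of ERK that is often read as its output, was lower, at 11.9 CPM in treated and 21.3 CPM in untreated members, 1.79-fold lower (interval 1.24 to 2.63). The immediate early gene Ier3 was also lower, at 43.6 CPM in treated and 63.0 CPM in untreated members and at 17.2 CPM in treated and 42.7 CPM in untreated members of these 451. Under the minimum, Etv4 had 0 UMIs in treated and 33 in untreated members and Etv5 2 in treated and 17 in untreated members. Spry1, with 16 in treated and 16 in untreated members, and Spred3, with 7 and 5, went the other way over all members for the lower treated total. For Spry1, 1 cell held 62.5% of the treated UMIs. In the 451 cells Spry1 had 4 UMIs in treated and 10 in untreated members and no longer went the other way. The list had a median of 0.61 in PD-1+ non-cycling and 0.89 in all non-cycling cells.

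Interleukin 2 receptor and STAT5 genes were higher in 4 of 11 and lower in 0, with a median of 0.35 that came to -0.071 at a minimum of 100 CPM. Il2rb, the signalling beta chain, stood at 869 CPM in treated and 441 CPM in untreated members, 1.97-fold higher (interval 1.87 to 2.08), and the STAT5 target Cish at 83.5 CPM in treated and 41.8 CPM in untreated members. Il2ra, the alpha chain, was at 19.5 CPM in treated and 28.2 CPM in untreated members. It did not pass the 1.5-fold limit. After thinning members to 8000 UMIs without reading the rule again, it was found in 16.4% of treated and 16.8% of untreated members.

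Type I interferon genes depended on few cells. Their median was 0.31 in all members and -0.95 in the 451 cells, where 0 of 12 were higher and 9 lower. Without only the deepest cell of each library it was -0.83. The list's median was -1.60 in PD-1+ non-cycling and -1.07 in all non-cycling cells. Ifit1, an antiviral sensor of RNA, stood at 42.4 CPM in treated and 9.41 CPM in untreated members but at 1.12 CPM in treated and 9.84 CPM in untreated members of these 451. Zbp1, a nucleic acid sensor, was lower in both readings, at 55.2 CPM in treated and 90.6 CPM in untreated members and at 39.7 CPM in treated and 93.7 CPM in untreated members of these 451.

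**Figure D4:**
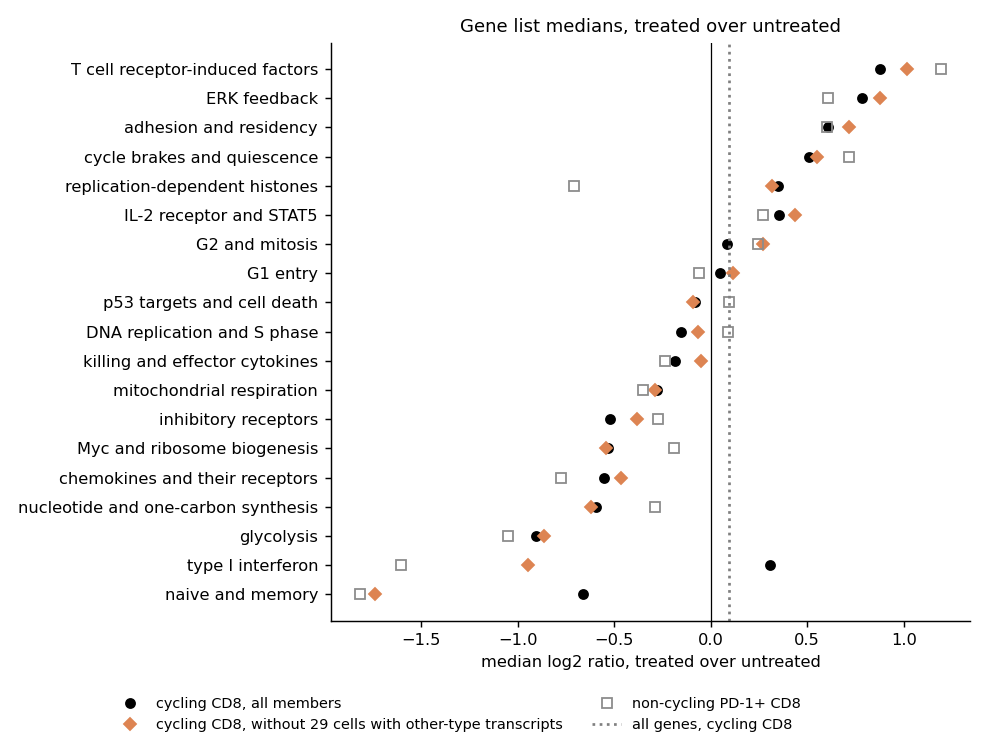
Median log2 ratio (treated over untreated) of selected gene lists in all members (black circles), in the 451 members under the limits for transcripts of other cell types (orange diamonds) and in PD-1+ non-cycling CD8 cells (open squares). The AP-1, sterol, fate factor, costimulation, heat shock and cell type lists are not drawn. The dotted line is the median of all genes compared in members; type I interferon genes stand at 0.31 and -0.95 in the 2 readings of the members.

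Naive and memory genes were low in treated members. The list had a median of -0.66 in all members and -1.74 in the 451 cells, with 6 of 12 lower and 2 higher in all and 8 and 0 in the 451; at a minimum of 100 CPM it was 0.065. It was also low in treated non-cycling cells, with a median of -2.08 in all of them and -1.82 in those with PD-1, and so not particular to members. Ccr7, a chemokine receptor of lymph node homing, was at 25.4 CPM in treated and 196 CPM in untreated members, 7.72-fold lower (interval 6.17 to 9.78), with a log2 ratio of -1.36 in thinned cells against -2.95, and Tcf7, the factor of stem-like T cells, at 11.9 CPM in treated and 37.4 CPM in untreated members, 3.13-fold lower (interval 2.22 to 4.53). Dapl1 had 4 UMIs in treated and 292 in untreated members. The 2 higher genes, Id3 and Igfbp4, were lower once the cells with transcripts of other types were left out: Id3 was at 89.4 CPM in treated and 16.9 CPM in untreated members over all cells but at 2.25 CPM in treated and 14.7 CPM in untreated members of these 451, and Igfbp4 at 348 CPM in treated and 63.5 CPM in untreated members against 0.748 CPM in treated and 6.50 CPM in untreated members of these 451.

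Inhibitory receptors were mostly within 1.5-fold in members, with a lower summed level per treated member. The summed level had a median of 824 CPM per treated and 1031 CPM per untreated member, and 55 of 168 treated members lay above the untreated median. Of 6 genes past the minimum 0 were 1.5-fold higher and 1 lower in all members, and 0 and 0 in the 451 cells, with a median of -0.52 in all members, against 1.86 in all non-cycling and -0.27 in PD-1+ non-cycling cells. Pdcd1 stood at 297 CPM in treated and 342 CPM in untreated members, 1.15-fold lower (interval 1.07 to 1.25), and Cd160, the gene of the list with the lowest ratio, at 69.7 CPM in treated and 108 CPM in untreated members. In all non-cycling cells Pdcd1 was at 326 CPM in treated and 76.7 CPM in untreated cells. The difference between these 2 comparisons was not tested.

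Fate factors were higher in 5 of 13 and lower in 1, with a median of 0.51. Tox, the factor of chronic stimulation, stood at 164 CPM in treated and 107 CPM in untreated members, 1.54-fold higher (interval 1.37 to 1.72), and Runx1 at 47.7 CPM in treated and 23.8 CPM in untreated members. Prdm1, which encodes the effector factor Blimp-1, was at 11.9 CPM in treated and 21.0 CPM in untreated members, 1.76-fold lower (interval 1.23 to 2.59). Genes of p53 and cell death were level, with 3 of 12 higher, 2 lower and a median of -0.081. Among them Bcl2l11, which encodes the death activator BIM, was at 138 CPM in treated and 76.5 CPM in untreated members, 1.81-fold higher (interval 1.59 to 2.06), and the survival genes Bcl2 and Bcl2a1b at 39.8 CPM in treated and 66.6 CPM in untreated members and at 186 CPM in treated and 353 CPM in untreated members, 1.67-fold lower (interval 1.37 to 2.05) and 1.90-fold lower (interval 1.73 to 2.08). Other genes of both roles went the other way: the survival gene Bcl2l1 was at 33.3 CPM in treated and 20.4 CPM in untreated members, Mcl1 at 315 CPM in treated and 213 CPM in untreated members, and the death activator Bax at 149 CPM in treated and 200.03 CPM in untreated members.

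Killing genes split. Of 11 past the minimum 2 were at least 1.5-fold higher and 4 lower, with a median of -0.18 that came to 0.0043 when 2 cycle genes sufficed. Gzmb, the main granzyme of killer cells, stood at 273 CPM in treated and 902 CPM in untreated members, 3.31-fold lower (interval 3.08 to 3.55), and Prf1, the pore-forming protein, at 68.7 CPM in treated and 273 CPM in untreated members, 3.97-fold lower (interval 3.45 to 4.59). Gzmk, a granzyme of memory-like cells, was at 90.4 CPM in treated and 41.6 CPM in untreated members, 2.17-fold higher (interval 1.84 to 2.57), and Fasl, the death ligand, at 80.3 CPM in treated and 44.7 CPM in untreated members, 1.80-fold higher (interval 1.52 to 2.13). Gzma, at 28.9 CPM in treated and 121 CPM in untreated members, was found in 5 treated and 28 untreated members, and 1 cell held 63.0% of its UMIs in the treated and 1 held 46.4% in the untreated library. Ifng, the interferon gamma gene, was at 81.9 CPM in treated and 109 CPM in untreated members, 1.33-fold lower (interval 1.15 to 1.54). In PD-1+ non-cycling cells Gzmb was at 343 CPM in treated and 862 CPM in untreated cells and Prf1 at 94.9 CPM in treated and 389 CPM in untreated cells, while Gzmk was at 61.4 CPM in treated and 70.9 CPM in untreated cells, lower in treated cells there.

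Costimulation genes were higher in 2 of 10 and lower in 3, with a median of 0.16. Cd44, the adhesion receptor of antigen-experienced cells, stood at 160.0 CPM in treated and 57.7 CPM in untreated members, 2.78-fold higher (interval 2.43 to 3.17), and Icos, a relative of CD28, at 120.2 CPM in treated and 57.1 CPM in untreated members. Ly6a, which interferons induce, was at 160.0 CPM in treated and 533 CPM in untreated members, 3.33-fold lower (interval 3.03 to 3.66), and Tnfrsf4, which encodes the costimulator OX40, at 162 CPM in treated and 303 CPM in untreated members. Receptors of this list thus stood on both sides.

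Chemokine and chemokine receptor genes were lower in 5 of 10 and higher in 2, with a median of -0.55, against -0.78 in PD-1+ non-cycling and 0.59 in all non-cycling cells. Per cell the summed level went the other way, with a median of 1537 CPM per treated and 1357 CPM per untreated member. Of 168 treated members, 96 lay above the untreated median of this list. Ccl3, an inflammatory chemokine, stood at 21.0 CPM in treated and 167 CPM in untreated members, 7.95-fold lower (interval 6.21 to 10.3), or a log2 ratio of -0.81 in thinned cells against -2.99. Ccl1 had 2 UMIs in treated and 493 in untreated members, which lay in 17 cells. The receptor gene Cxcr4 was higher, at 88.2 CPM in treated and 53.8 CPM in untreated members. Adhesion and residency genes were higher in 5 of 9 and lower in 0, with a median of 0.61, and 142 of 168 treated members lay above the untreated median. The list's median was 0.60 in PD-1+ non-cycling and 1.54 in all non-cycling cells. Itga1, an integrin of resident cells, stood at 21.3 CPM in treated and 4.71 CPM in untreated members, 4.53-fold higher (interval 2.94 to 7.13), and Itga4, an integrin of migration, at 188 CPM in treated and 106 CPM in untreated members. Heat shock genes, a sign of handling stress, had a median of -0.21 and 3 of 11 lower; Hspa1a was at 45.8 CPM in treated and 209.9 CPM in untreated members, or 52.0 CPM in treated and 88.7 CPM in untreated members of these 451, and Dnaja1, a cochaperone, at 669.9 CPM in treated and 333 CPM in untreated members.

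**Figure D5:**
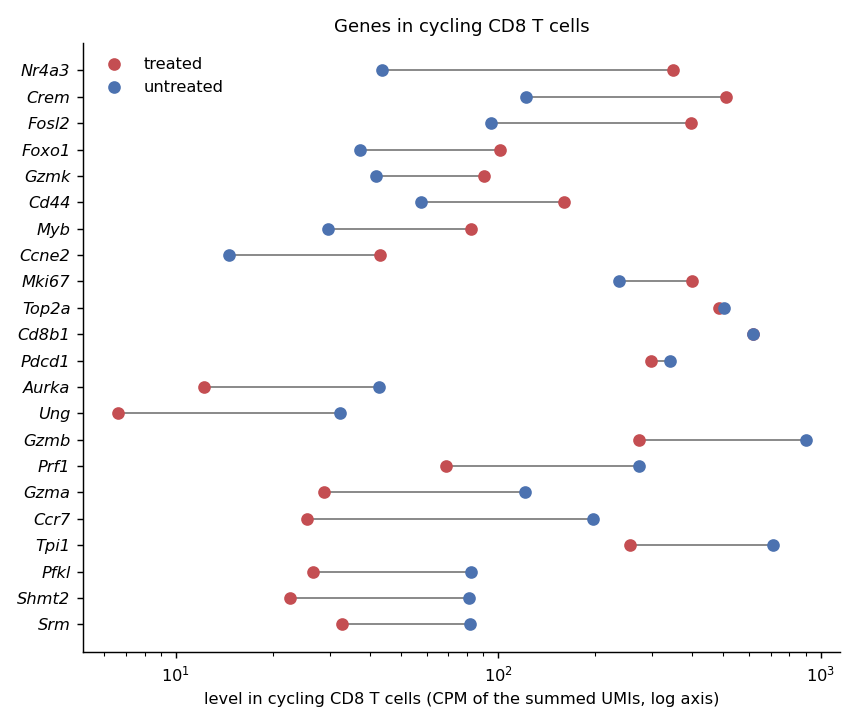
Level of selected genes in members (CPM, log axis) in the treated (red) and untreated (blue) library; a line joins the 2 values of a gene. Nr4a3 stands at 348 CPM in treated and 43.5 CPM in untreated members, Cd8b1 at 616 CPM in treated and 616 CPM in untreated members, and Ccr7 at 25.4 CPM in treated and 196 CPM in untreated members.

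Across all genes, the 12 highest ratios belonged to C3, Ogn, Col6a1, Col5a2, Col3a1, Nupr1, Crabp2, Id1, Vcan, Cp, Mmp2 and Gxylt2, many of them genes of extracellular matrix and stroma. Members with transcripts of other cell types held 99.1% of the treated UMIs of C3 and 99.9% of those of Col3a1. Col3a1 was at 439.6 CPM in treated and 10.9 CPM in untreated members over all cells and at 0.748 CPM in treated and 0.834 CPM in untreated members of these 451. In those 451 cells the 12 highest, named after the values were seen, included Zc3hav1l, Nr4a3, Osgin1, Scd2, Jmy, Ell2, Abcg1, Akap12, Cpeb2, Klra3 and Crem. The elongation factor gene Ell2 was at 69.2 CPM in treated and 10.2 CPM in untreated members, 6.81-fold higher (interval 5.07 to 9.25). Osgin1, a stress response gene, was at 55.4 CPM in treated and 5.34 CPM in untreated members, and Abcg1, a sterol exporter, at 46.0 CPM in treated and 6.50 CPM in untreated members.

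The 12 lowest ratios included those of Ccl1, Dapl1, Ctsk, Asb2, Gzmc, Cd70, Ccl3, Ccr7, Plet1, Serpina3f and Ccdc184. Cd70, the ligand of CD27, had 4 UMIs in treated and 153 in untreated members, found in 4 treated and 66 untreated cells, 17.9-fold lower (interval 6.86 to 66.6). Serpina3f, a serpin of activated lymphocytes, was at 4.39 CPM in treated and 43.2 CPM in untreated members, in 11 treated and 110 untreated cells. Asb2, a ubiquitin ligase subunit, had 2 UMIs in treated and 141 in untreated members. All 185 untreated UMIs of Ctsk lay in 1 cell, and Plet1 had 1 UMI in treated and 4 in untreated members of the 451. Gzmc, a gene of the rule, was at 27.3 CPM in treated and 241 CPM in untreated members. Class II genes were among the lowest in the 451 cells, but they belong to the dendritic list whose UMIs chose the cells left out. Their values there are partly set by that choice and are a description. H2-Aa was at 1.87 CPM in treated and 28.8 CPM in untreated members of the 451, against 399 CPM in treated and 442 CPM in untreated members over all cells. Cd74, the invariant chain, was at 34.1 CPM in treated and 239 CPM in untreated members of the 451, against 944 CPM in treated and 1094 CPM in untreated members over all cells.

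Set beside non-cycling cells of the same library, members differed first in the cycle itself, which the rule chose. Against PD-1+ non-cycling CD8 cells, 57 of 58 G2 and mitosis genes were at least 1.5-fold higher in treated members and 57 in untreated members, and 31 in treated and 32 in untreated members of 32 S phase genes, where 20.4% of all genes were in the treated and 20.2% in the untreated library. Among genes outside every list, those highest against non-cycling cells in both libraries were Pimreg, Lrr1, Neil3, Esco2, Pclaf, Pbk, Ska1, Sapcd2 and Mxd3. Ogn, a stroma gene that the rule also picked, had 1 UMI in untreated members and 0 in untreated non-cycling cells, so it has no such ratio. Pclaf, a partner of PCNA, stood at 559 CPM in treated members and 4.76 CPM in treated non-cycling cells, and at 583 CPM in untreated members and 4.17 CPM in untreated non-cycling cells. Esco2, which joins sister chromatids, was at 44.6 CPM in treated members and 0 in treated non-cycling cells, and at 36 CPM in untreated members and 0.294 CPM in untreated non-cycling cells.

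Nucleotide and one-carbon genes were higher in members than in PD-1+ non-cycling cells in both libraries, with medians of 1.32 in the treated and 1.58 in the untreated library, while glycolysis genes were near even, at 0.059 treated and 0.11 untreated. Myc and ribosome biogenesis genes had 0.23 treated and 0.58 untreated. Members were lower in inhibitory receptors, with -0.69 treated and -0.56 untreated, where the non-cycling cells were chosen on Pdcd1, a gene of this list. Chemokine genes had -0.53 treated and -0.98 untreated, and naive and memory genes -0.76 treated and -0.73 untreated. Ccl5, a chemokine of effector cells, was at 1183 CPM in treated members and 3650.4 CPM in treated PD-1+ non-cycling cells, and at 1005 CPM in untreated members and 3097 CPM in untreated PD-1+ non-cycling cells.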

How the data were processed

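RNA of single cells was counted per gene in 1 treated and 1 untreated library, with 15121 genes and 17390 cells, and a cell's library was read from the suffix of its name. The authors deposited natural log values, ln(1 + 10000 × UMIs of a gene / UMIs of the cell), since the values of every cell, turned back, sum to 10000. Per the submitters' processing notes Cell Ranger and Seurat were used, with versions not given in the sources used here, and the build named there is GRCh38 although the gene symbols are those of mouse. The UMIs were recovered from the smallest step in each cell, and 100% of 38204229 values above 0 came out whole within 0.01.

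UMIs were summed over members and given as CPM. A gene was compared where 1 library held 50 or more UMIs and reached 20 CPM. Ratios have exact conditional binomial intervals and shares exact Clopper-Pearson intervals, at 95%. The ratio intervals were tried on simulated Poisson counts, which is what they assume. That trial cannot speak for genes with most UMIs in 1 cell. The share intervals were only checked against a known value. UMIs of a 3' kit are compared between libraries, never between genes. A gene at 0 in a library was not detected at this depth. No doublets were removed in the values reported, and an alternative left out the highest 5% of Scrublet scores, with 23 treated and 16 untreated members in it; its automatic threshold was not used.

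The members and lists were chosen with earlier results of these data known. Genes named were the 12 highest and 12 lowest ratios by the interval bound nearest 1, leaving out receptor segment, ribosomal protein, mitochondrial, predicted and sex-linked genes, the 2 highest and 2 lowest of each list, the 10 highest against non-cycling cells outside the lists and a fixed set of known cycle and T cell genes. Other list members were named after their values were seen, and a few genes that this rule picks are not reported here. Software was Python 3.11.15 with scanpy 1.11.5 (Scrublet), scipy 1.17.1 (intervals), pandas 2.3.3, numpy 2.4.6 and matplotlib 3.10.9 (figures).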

Additional observations from a re-analysis of the deposited data

Results flagged for a closer look

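For 7 of the named genes the log2 ratio of treated over untreated had one sign in members and the other in non-cycling CD8 cells of the same gate, each by at least 1.5-fold, also without the 29 cells that carried transcripts of other cell types. The named genes include those with the highest and lowest ratios in members. How many of all compared genes meet this limit was not counted, so the number is a description. Gzmb stood at -1.73 in members and 0.61 in non-cycling cells, and Gzmf at -1.56 in members and 1.22 in non-cycling cells. Gzmf is 1 of the 5 granzymes whose detection the rule limits in both classes, so its values are partly set by the choice of cells and are a description. Tnfrsf4 stood at -0.90 in members and 1.07 in non-cycling cells, the survival gene Bcl2a1b at -0.92 and 1.39, and the effector factor Prdm1 at -0.82 and 1.22. Sqle, an enzyme of sterol synthesis, stood at -1.52 and 0.87, and Aurka at -1.81 and 0.85. In PD-1+ non-cycling cells the values were -1.33 for Gzmb, -1.07 for Gzmf, -1.05 for Tnfrsf4, -0.27 for Bcl2a1b, -0.33 for Prdm1 and -0.35 for Sqle, with the sign of the members, and 0.44 for Aurka, with the other sign. The share of PD-1+ cells in the gate was 69.7% in the treated and 25% in the untreated library, and its part in these values was not tested. With 1 library per group the differences between cell classes were not tested.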

How the results depend on the processing

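Under other settings 38 values of shares and gene counts stayed within their interval or within 1.5 times and 17 moved, while 397 list medians stayed, 92 moved and 16 turned. The treated share of 3.88% came to 7.28% with 2 cycle genes, 3.14% with 4, 3.3% with none of Gzmc to Gzmg and 2.49% in thinned cells, and the untreated share of 8.96% to 11.9%, 6.66%, 6.0% and 5.18%, and to 10.0% with Cd8a in the gate. The ratio of 0.433 came to 0.614 with 2 cycle genes and 0.550 with none of Gzmc to Gzmg. The 657 higher and 199 lower genes came to 57 and 60 in thinned cells, 1612 and 737 at a minimum of 10 UMIs and 121 and 40 at 100 CPM; thinning and the higher minimum test fewer genes. In list medians the sign turned for macrophage genes with none of Gzmc to Gzmg (1.23), dendritic genes with 4 cycle genes (0.20), killing genes with 2 (0.0043), stroma genes without the 29 cells (-0.29), histones (-0.25), sterol (0.094) and AP-1 genes (-0.050) in thinned cells, sterol (2.67), IL-2 receptor (-0.071) and naive genes (0.065) at 100 CPM, and heat shock genes as a difference of mean deposited values (0.0060, natural log). Type I interferon genes turned to -0.97 in thinned cells, -0.99 as a mean CPM per cell, -0.065 in deposited values, -0.95 without the 29 cells and -0.83 without the deepest cells. Single genes turned without the 29 cells (Col3a1 and Nupr1 to -0.16, Sparc -0.42, Phlda3 -1.27, Ifit1 -3.13, Oasl2 -2.38, Igfbp4 -3.12, Id3 -2.71), without the deepest cells (Phlda3 -0.15, Ifit1 -2.23, Oasl2 -1.53, Id3 -1.09), as a mean CPM per cell (Phlda3 -0.67, Ifit1 -1.34, Oasl2 -1.25, Id3 -0.72), in deposited values (Phlda3 -0.025, Ifit1 -0.056, Oasl2 -0.029, Igfbp4 -0.014, Id3 -0.065, Hspa1b 0.0060) and in thinned cells (Id1, Oasl2 and Id3 to -0.23, Igfbp4 -1.81, Shmt1 0.55, Hspa1b 0.10). The cause was not tested. In thinned cells 85 further named genes moved by more than their interval and 51 did not. Leaving out the 29 cells and the deepest cells was chosen after the data were seen. No paired analysis was possible because each group is 1 library. Depth limits genes of few UMIs, and with no replicate library none of the differences can be set against the spread between animals.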
